A study of Homo sapiens with 6 samples.

Results

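The genes described here run the spindle checkpoint and the passage through mitosis. They are 52 genes chosen by name (cyclins and their kinase CDK1, checkpoint and kinetochore proteins, the chromosomal passenger complex, spindle and cytokinesis proteins), and all 52 were found once each among the 78932 gene rows of the count table. Polyadenylated RNA came from HCC1937, an established line of triple-negative breast cancer cells. The 3 control libraries were labelled con, with no vehicle named, and the 3 others came from cells given 8 nM docetaxel, all at 24 h. Beyond the line's own genotype the labels give no allele, construct or second agent, and they name replicates as biological (bio rep) without saying whether these were separate cultures. The p-values therefore measure the spread between libraries of 1 line at 1 dose and 1 time.

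In mitosis, kinetochores that lack a microtubule recruit the kinases TTK and BUB1 and turn MAD2L1 into the form that binds CDC20. Together with BUB1B and BUB3 it holds the anaphase-promoting complex, a ubiquitin ligase, in check, so cyclin B and securin stay and sister chromatids remain joined. Docetaxel stabilises microtubules, and taxanes are known for holding dividing cells in this state. Transcripts of most of these genes accumulate late in the cell cycle, under FOXM1 and the MYB-MuvB complex, and are repressed in resting cells by the DREAM complex. In bulk RNA a change in the share of cells in mitosis and a change in RNA per cell cannot be told apart.

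Libraries held 38622062 to 41675186 counts, at which a count of 0 allows a level of up to 0.0720 to 0.0777 CPM, for counting error only. CPM is a gene's count scaled to a fixed total for every library, with library sizes adjusted by the trimmed mean of M values. Of 11 markers of a breast epithelial line, KRT8 and KRT18 averaged 1812 and 633 CPM in control, while EPCAM and CDH1 averaged 0.0554 and 0.645 CPM, and EPCAM, KRT5, KRT14, KRT19 and PGR had 3 to 30 reads each over the 6 libraries, near 0. Of 8 markers of stromal, endothelial and immune cells, COL1A1 averaged 137 CPM in control and 143 CPM with docetaxel, and PTPRC, CD3E and CD68 had 1, 2 and 9 reads over the 6 libraries. The summed level of these 8 ran from 138.1 to 141.1 CPM in control and from 143.6 to 148.9 CPM with docetaxel. Their part in the results was not tested.

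The summed level of the 52 genes differed little between the groups. It was 5074, 5161 and 5133 CPM in the control libraries and 5146, 5166 and 5238 CPM with docetaxel, and the ranges overlapped. Individual genes moved in both directions and by small amounts. Of the 51 genes with enough reads to test, 7 rose and 8 fell at an adjusted p under 0.05 (edgeR quasi-likelihood test, Benjamini-Hochberg over all 18040 genes tested), which is 13.7% and 15.7% of them. Over all genes tested 9.14% were higher and 7.82% lower, 17.0% in all against 29.4% of these genes. The docetaxel libraries lay wholly above or below the control libraries in 25 of the 51, 49.0%, where all genes tested gave 32.0%. Shares over all genes, here and below, were not matched for level. Of the 52 genes, 49 averaged 6.25 CPM or more in control, and small changes are easier to call in genes with many reads. Their median log2 fold change was -0.02, against 0.01 over all genes tested. With libraries scaled by size alone the split was 4 higher and 11 lower. The number lower was 2 without control replicate 2, 5 without control replicate 3 or docetaxel replicate 2, 3 without docetaxel replicate 3 and 15 without docetaxel replicate 1, and the number higher was 4 without docetaxel replicate 3.

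The genes that rose were CDC20, NUMA1, TACC3, FOXM1, AURKB, PLK1 and BIRC5, by 1.10-fold to 1.17-fold. Those that fell were PRC1, NUF2, ANLN, CDK1, ASPM, TTK, ECT2 and TOP2A, and leaving PRC1 aside as a gene with few reads, they reached 0.795 to 0.892 of the control level. Among the 49 genes above 2 CPM no fold change passed 1.5, and the lowest and highest 95% confidence limits were 0.71-fold and 1.36-fold. Within a group the libraries varied with a median coefficient of variation of 3.88% over these 49 genes.

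**Figure D1:**
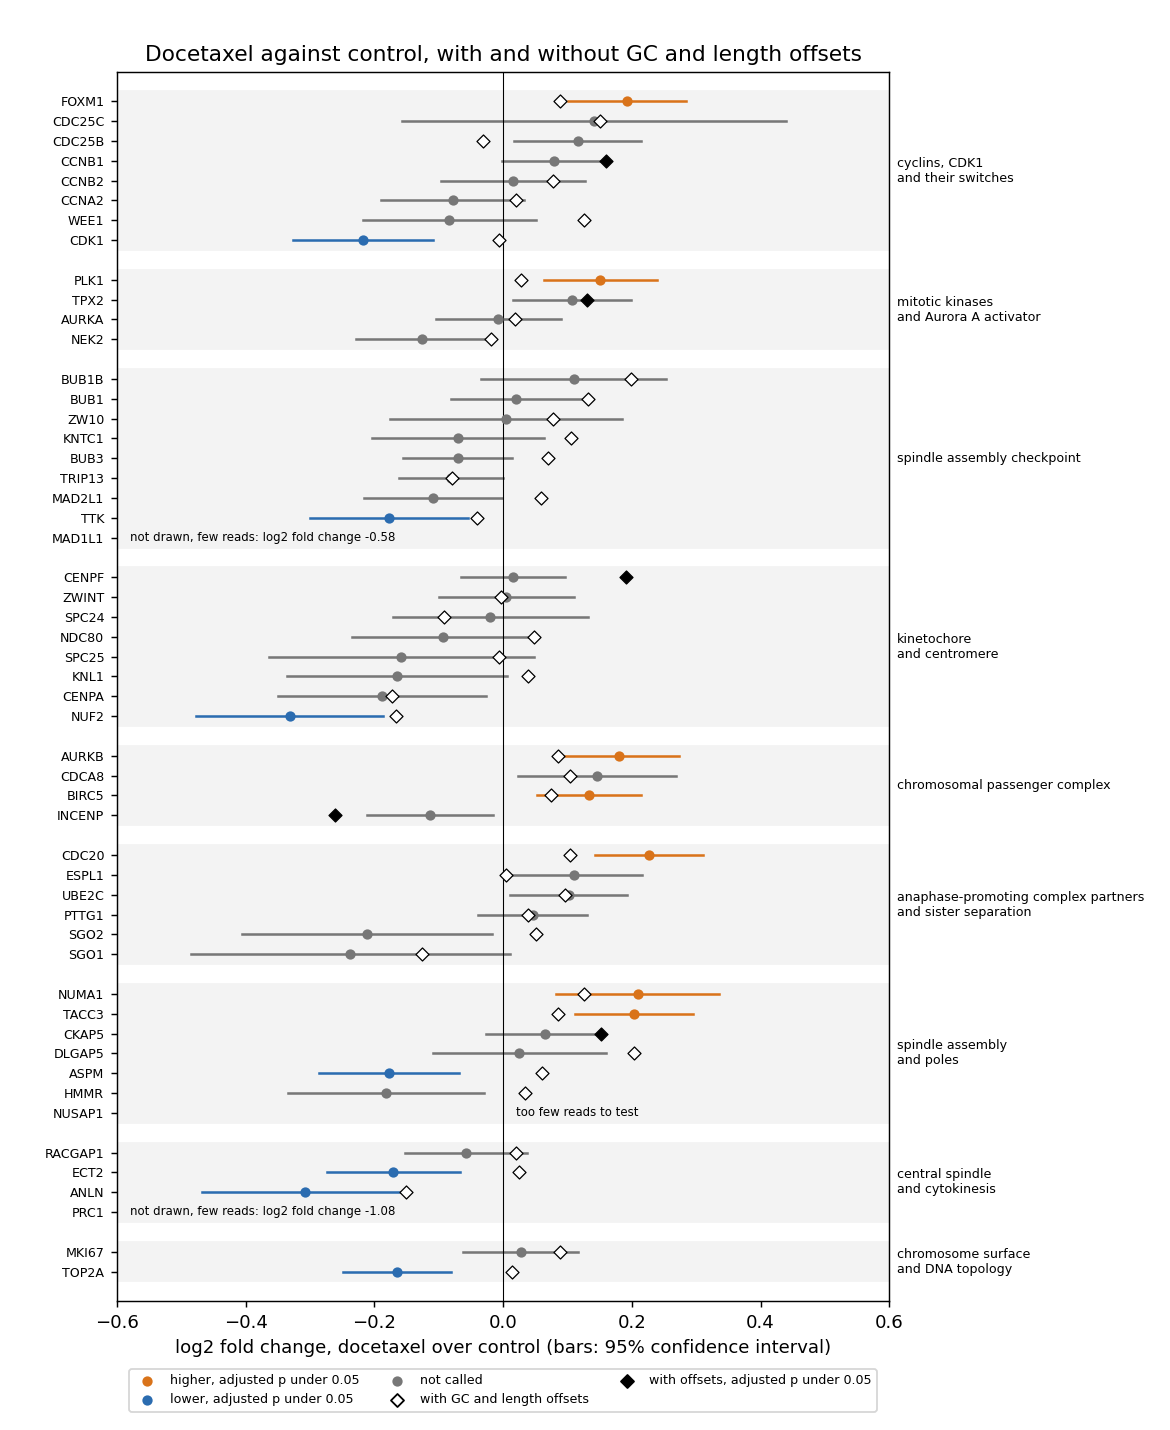
log2 fold change of each mitotic gene, docetaxel over control, grouped by role, with bars for the 95% confidence interval of edgeR's test (3 libraries per group). Circles (orange higher, blue lower, grey not called) are the fit without offsets and diamonds the fit with offsets for GC content and gene length. The 7 genes higher lie between 0.13 and 0.23, the 7 lower genes drawn lie between -0.33 and -0.16, and the 5 filled diamonds are the genes called with offsets.

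Levels of the 49 genes above 2 CPM spanned 1.88 to 122 CPM per kilobase of gene model in control, with a median of 15.9. CCNB1 and CDC20 stood highest, both at 122 CPM per kilobase, followed by UBE2C at 102 and PTTG1, the securin gene, at 95.8. CDC25C, KNL1 and NUMA1 were the lowest of the 49, at 1.88, 2.29 and 3.04. The length is the one the count table gives for each gene.

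A further 3 genes had almost no reads, though each is known to be used by dividing cells. NUSAP1, a microtubule-bundling protein of the spindle (ENSG00000137804, chromosome 15, 41332694 to 41381050, plus strand), was given 9, 2 and 10 reads in the controls against 1, 3 and 4 after docetaxel, too few to test. MAD1L1, which anchors MAD2L1 at kinetochores (ENSG00000002822, chromosome 7, 1815793 to 2233243, minus strand), was given 11, 8 and 18 against 5, 10 and 8. PRC1, which bundles the microtubules of the central spindle (ENSG00000198901, chromosome 15, 90966038 to 90995629, minus strand), was given 56, 88 and 68 against 44, 25 and 24. In GENCODE 29, on the same GRCh38 build, a second protein-coding gene on the same strand, AC087721.2, covers 48050 bases of NUSAP1, and another, AC068831.7, covers 29440 bases of PRC1. AC087721.2 had 0 reads in every library, while AC068831.7 was given 288, 310 and 334 in the controls against 226, 254 and 261 after docetaxel. MAD1L1 has no protein-coding overlap in that release, and the release the counts were made with is not given in the sources used here. Whether reads shared between overlapping genes were dropped was not tested. Of the other genes, CENPA and BUB1B also overlap a protein-coding gene on the same strand in that release, and 12 more overlap one on the opposite strand only.

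**Figure D2:**
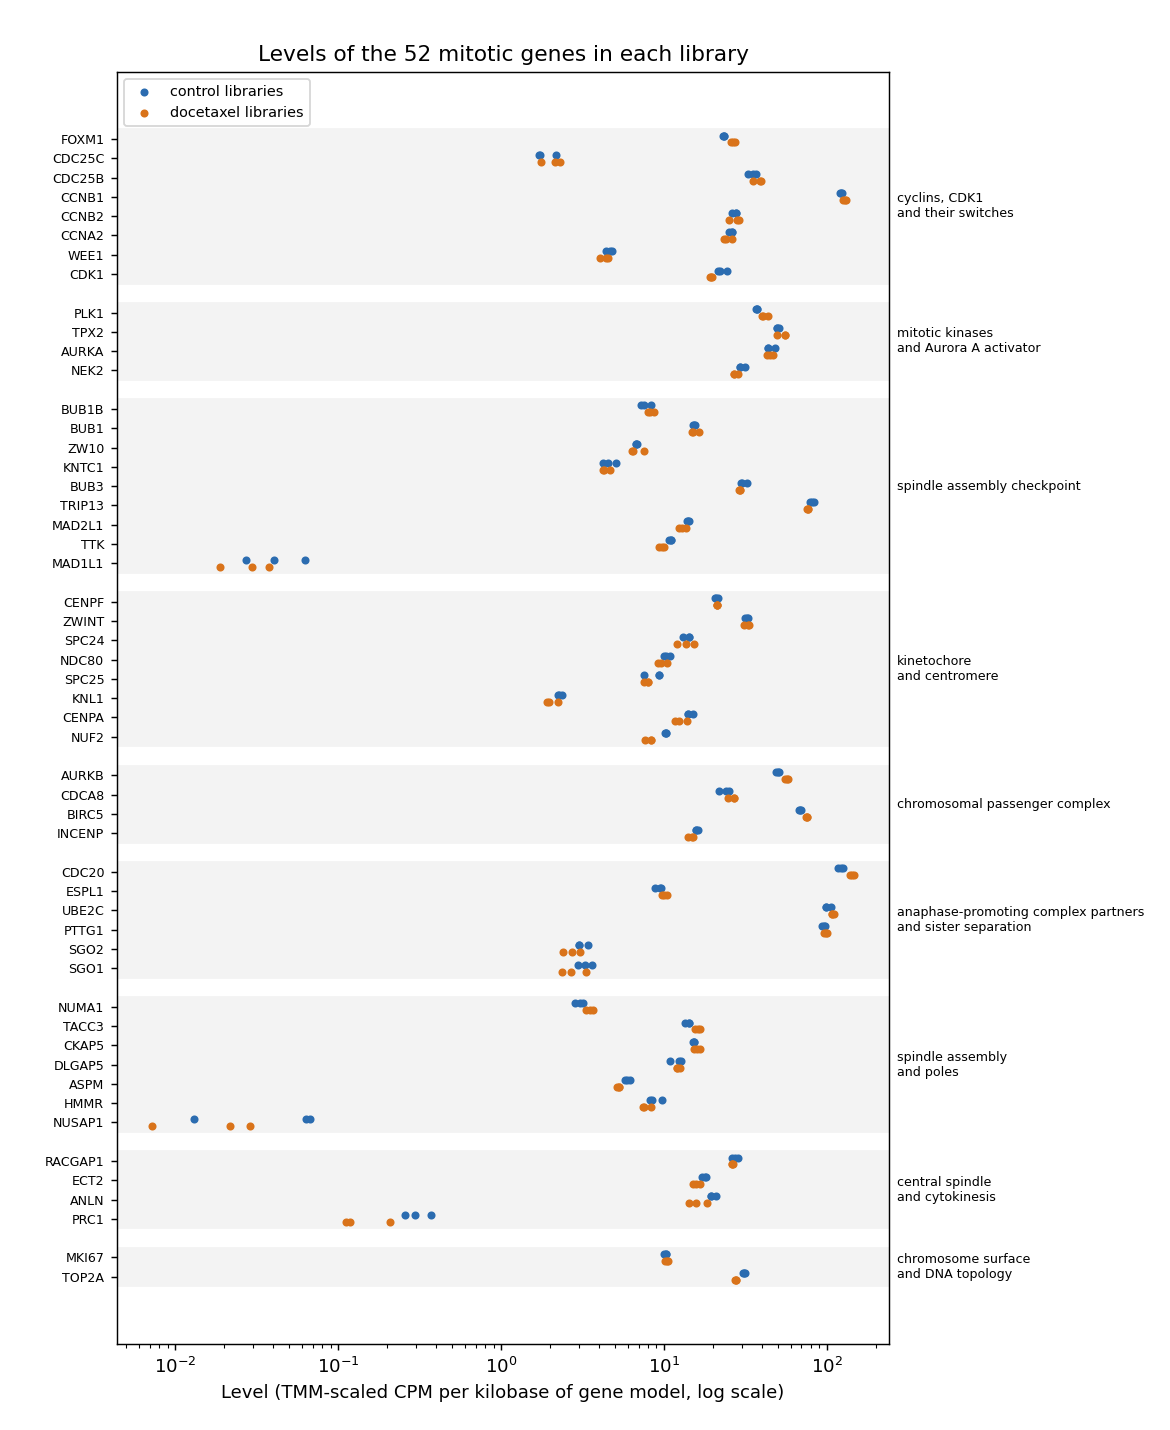
Level of each of the 52 mitotic genes in each library, in CPM per kilobase of gene model on a log scale, grouped by role, with control in blue and docetaxel in orange. The 49 genes above 2 CPM lie between 1.88 and 122 in control, with the groups close together, and NUSAP1, MAD1L1 and PRC1 lie far below the rest.

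Promoters are shown for genes that rose and genes that fell, since late cell cycle genes are known to share a CHR element (cell cycle homology region) near the start site, with CCAAT boxes upstream. RefSeq promoters on GRCh38.p14, 250 bases before to 50 after the start, were found for 41 of the 52 genes and searched on both strands for the CHR cores TTTGAA and TTTAAA and for CCAAT. At least 1 CHR core was present in 30 of the 41 (73.2%), against 24.3% of all 27305 promoters in the table. CCAAT was present in 32 (78.0%), against 35.7%, and both in 26 (63.4%), against 9.5%. A CHR core was found for 3 of the 5 genes that rose, all 7 that fell and 20 of the 29 others, of those with a promoter in the table. These are matches of letters anywhere in a window. Nearness of a CHR core to the start, and its order relative to CCAAT, were not required. The lines give the 120 bases before the RefSeq start of CDC20 and PLK1, which rose, of ANLN, ECT2 and ASPM, which fell, and of CCNB1 and INCENP, 5′ to 3′ on the gene's strand, with the motifs on either strand in capitals.
CDC20: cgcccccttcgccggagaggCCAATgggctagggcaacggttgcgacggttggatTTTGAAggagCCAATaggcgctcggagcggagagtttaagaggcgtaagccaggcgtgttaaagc
PLK1: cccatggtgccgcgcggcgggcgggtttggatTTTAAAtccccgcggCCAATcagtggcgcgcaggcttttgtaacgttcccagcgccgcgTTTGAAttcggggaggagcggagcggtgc
ANLN: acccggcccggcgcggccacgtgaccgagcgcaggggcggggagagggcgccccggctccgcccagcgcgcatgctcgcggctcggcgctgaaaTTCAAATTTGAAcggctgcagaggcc
ECT2: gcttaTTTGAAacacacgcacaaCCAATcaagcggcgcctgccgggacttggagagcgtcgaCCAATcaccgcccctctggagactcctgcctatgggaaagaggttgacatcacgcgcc
ASPM: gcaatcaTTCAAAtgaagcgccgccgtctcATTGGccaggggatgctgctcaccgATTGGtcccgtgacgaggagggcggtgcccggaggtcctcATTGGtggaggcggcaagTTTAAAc
CCNB1: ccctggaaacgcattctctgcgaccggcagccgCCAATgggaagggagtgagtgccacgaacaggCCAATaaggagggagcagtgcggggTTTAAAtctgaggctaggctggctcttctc
INCENP: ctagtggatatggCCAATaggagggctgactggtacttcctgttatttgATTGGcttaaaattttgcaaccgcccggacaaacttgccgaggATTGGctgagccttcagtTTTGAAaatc
They lie at chr1:43358861-43358980 (plus strand), chr16:23678769-23678888 (plus strand), chr7:36389742-36389861 (plus strand), chr3:172750606-172750725 (plus strand), chr1:197146670-197146789 (minus strand), chr5:69167030-69167149 (plus strand) and chr11:62123891-62124010 (plus strand). CDC20 and CCNB1 each have a CHR core between or after a pair of CCAAT boxes, PLK1 has both CHR cores, and ANLN has TTTGAA and its reverse complement side by side with no CCAAT in the window. The same short motifs were present at genes called higher and at genes called lower in the fit without offsets. With the offsets for GC content and gene length described further on, CDC20 and PLK1 had log2 fold changes of 0.10 and 0.03. ANLN, ECT2 and ASPM were then at -0.15, 0.02 and 0.06, and none of the 5 was called. Whether the motifs bear on the direction was not tested.

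Among the cyclins, CDK1 and their switches, 1 of 8 genes rose, 1 fell and 6 did not pass. Over all genes tested 9.14% were higher and 7.82% lower. FOXM1, the transcription factor that drives many genes of this set (ENSG00000111206, chromosome 12, 2857681 to 2877155, minus strand), rose from 115, 113 and 115 CPM in the control libraries to 127, 132 and 134 CPM with docetaxel. All 3 docetaxel libraries were above all 3 controls, with a log2 fold change of 0.19 ± 0.05 (SE; adjusted p by edgeR = 0.0028). With the offsets for GC content and gene length FOXM1 was at 0.09 (edgeR adjusted p = 0.22). CDK1, the kinase that starts mitosis (ENSG00000170312, chromosome 10, 60778331 to 60794852, plus strand), fell from 86.3, 96.0 and 84.0 CPM to 77.2, 76.6 and 75.3 CPM, a log2 fold change of -0.22 ± 0.05 (edgeR adjusted p = 0.0043). Its control libraries spread more widely than its docetaxel libraries, with control replicate 2 highest, and without that library the call was lost (adjusted p = 0.057). CCNB1, the partner of CDK1 (ENSG00000134057, chromosome 5, 69167010 to 69178245, plus strand), had 295, 300.2 and 297 CPM in control and 306, 317 and 319 CPM with docetaxel. These groups did not overlap, but the log2 fold change of 0.08 ± 0.04 missed the threshold (edgeR adjusted p = 0.18). The log2 fold changes of CCNA2, CCNB2, WEE1, CDC25B and CDC25C, the other cyclins and the kinase and phosphatases that set CDK1 activity, ran from -0.08 to 0.14.

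The ratio of CCNB1 to CDK1 CPM separated the groups, at 3.42, 3.13 and 3.53 in control and 3.96, 4.14 and 4.24 with docetaxel. The groups differed by 0.29 on the log2 scale. It was 1 of 5 ratios computed, all chosen after the values were seen and therefore given as descriptions. An exact permutation test gave p = 0.1 for each, the lowest it can reach with 3 libraries per group, so it cannot decide. With offsets the log2 fold changes of CCNB1 and CDK1 were 0.16 and -0.0066. Transcript GC contents of CCNB1 and CDK1 were 43.15% and 36.96%.

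Of the mitotic kinases PLK1, AURKA and NEK2 and the Aurora A activator TPX2, 1 of 4 rose, where 9.14% of all genes tested were higher. PLK1, which promotes mitotic entry and spindle assembly (ENSG00000166851, chromosome 16, 23677656 to 23690367, plus strand), had 176, 177 and 178 CPM in control and 189.7, 194 and 208 CPM with docetaxel, so the groups were apart, with docetaxel replicate 3 highest. It rose by 0.15 ± 0.04 on the log2 scale (edgeR adjusted p = 0.013), and the call was lost without control replicate 1 (adjusted p = 0.056) or docetaxel replicate 3 (0.16), and with library size alone (0.064). With offsets PLK1 was at 0.03 (edgeR adjusted p = 0.79). TPX2 had 178, 183 and 178 CPM in control and 179, 200.5 and 200.2 CPM with docetaxel, overlapping in docetaxel replicate 1 (log2 fold change 0.11, edgeR adjusted p = 0.10). NEK2, a centrosome kinase, had 91.1, 97.3 and 90.5 CPM in control and 88.5, 83.5 and 83.5 CPM with docetaxel, without overlap but short of the threshold (adjusted p = 0.084). AURKA, the kinase of spindle poles, had a log2 fold change of -0.0076 ± 0.05 (SE).

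Of 9 genes of the spindle assembly checkpoint, TTK fell and 8 did not pass, where 7.82% of all genes tested were lower. TTK, a kinase that starts checkpoint signalling (ENSG00000112742, chromosome 6, 80003887 to 80042527, plus strand), fell from 50.7, 49.2 and 50.9 CPM to 45.6, 43.0 and 44.7 CPM. Its groups did not overlap, with a log2 fold change of -0.18 ± 0.06 (edgeR adjusted p = 0.037), but the call was lost without control replicate 1 (adjusted p = 0.10), control replicate 2 (0.059), control replicate 3 (0.12), docetaxel replicate 2 (0.12) or docetaxel replicate 3 (0.10), with upper-quartile scaling (0.055), with no filter on low counts (0.072) and with the replicate block (0.068). MAD2L1, whose product binds CDC20, had 77.2, 79.2 and 76.2 CPM in control and 75.7, 68.4 and 71.5 CPM with docetaxel, narrowly apart, with a log2 fold change of -0.11 (edgeR adjusted p = 0.17). BUB1B, which encodes BUBR1, had 33.7, 32.1 and 37.4 CPM in control and 38.9, 36.8 and 35.6 CPM with docetaxel, with control replicate 3 inside the docetaxel range. Its log2 fold change, 0.11 ± 0.07, did not pass (edgeR adjusted p = 0.34). BUB1 and BUB3, kinetochore partners of BUB1B, had log2 fold changes of 0.02 and -0.07, and ZW10 and KNTC1, which bring dynein and MAD1 to kinetochores, 0.0047 and -0.07. TRIP13, the ATPase that returns MAD2 to its inactive form, was at -0.08, with docetaxel libraries all below control (edgeR adjusted p = 0.18). With offsets for GC content and gene length, described further on, TTK was at -0.04 (edgeR adjusted p = 0.80). MAD2L1, BUB3 and KNTC1 were then above 0, at 0.06, 0.07 and 0.10. BUB1B and BUB1 were at 0.20 and 0.13 (edgeR adjusted p = 0.086 and 0.079).

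Of 8 kinetochore and centromere genes, 1 fell and 7 did not pass, where 7.82% of all genes tested were lower. NUF2, a subunit of the NDC80 complex that grips microtubules (ENSG00000143228, chromosome 1, 163266576 to 163355764, plus strand), fell from 34.5, 34.6 and 34.4 CPM to 28.2, 25.8 and 28.2 CPM, a log2 fold change of -0.33 ± 0.07 (edgeR adjusted p = 0.0014). The 3 control values were nearly identical and all above the docetaxel values, and NUF2 stayed called in all 14 alternatives without offsets. The other subunits of that complex, NDC80, SPC24 and SPC25, had log2 fold changes of -0.09, -0.02 and -0.16, with overlapping groups. The ratio of NUF2 to NDC80 was 0.96, 0.94 and 0.89 in control and 0.75, 0.76 and 0.86 with docetaxel. With offsets NUF2 and NDC80 were at -0.17 and 0.05, and their transcript GC contents were 38.8% and 40.1%. CENPA, the centromeric histone, had 29.4, 27.6 and 27.2 CPM in control and 27.0, 22.9 and 24.0 CPM with docetaxel, without overlap (log2 fold change -0.19, edgeR adjusted p = 0.10). CENPF, a large kinetochore protein of late cycle cells, had 267, 256 and 262 CPM in control and 266, 263 and 265 CPM with docetaxel, with overlap and a log2 fold change of 0.01 whose sign changed when libraries were scaled by size alone. KNL1, the scaffold for BUB proteins, and its partner ZWINT had log2 fold changes of -0.16 and 0.0050.

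The chromosomal passenger complex corrects faulty attachments of chromosomes to the spindle. Of its 4 subunits 2 rose, where 9.14% of all genes tested were higher. With the offsets for GC content and gene length described below, AURKB and BIRC5 were at 0.085 and 0.074 (edgeR adjusted p = 0.25 and 0.25). Only INCENP was then called, and it was lower. AURKB, its kinase (ENSG00000178999, chromosome 17, 8204733 to 8210600, minus strand), rose from 114, 109 and 113 CPM to 125, 129 and 127 CPM, a log2 fold change of 0.18 ± 0.05 (edgeR adjusted p = 0.0049). BIRC5, which encodes survivin (ENSG00000089685, chromosome 17, 78214186 to 78225636, plus strand), rose from 257, 262 and 267 CPM to 288, 285 and 289 CPM, a log2 fold change of 0.13 ± 0.04 (edgeR adjusted p = 0.017). In both genes every docetaxel library was above every control. CDCA8, which encodes borealin, had 52.4, 57.9 and 60.9 CPM in control and 59.6, 64.8 and 65.0 CPM with docetaxel, with overlap (edgeR adjusted p = 0.097). INCENP, the scaffold that joins the kinase to the other subunits (ENSG00000149503, chromosome 11, 62123973 to 62153163, plus strand), had 107, 110.3 and 106 CPM in control and 95.3, 100.3 and 103 CPM with docetaxel, all below control (log2 fold change -0.11 ± 0.05, edgeR adjusted p = 0.10). The BIRC5 call was lost without control replicate 1 (adjusted p = 0.092), docetaxel replicate 1 (0.066) or docetaxel replicate 3 (0.082), with library size alone (0.085), with no filter on low counts (0.063) and with the replicate block (0.0502).

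The ratio of AURKB to INCENP was 1.07, 0.99 and 1.07 in the control libraries and 1.31, 1.29 and 1.24 with docetaxel, a difference of 0.29 on the log2 scale. The ratio of BIRC5 to INCENP differed by 0.25 and that of CDCA8 to INCENP by 0.26, and no ratio overlapped between groups. The 3 share INCENP and are not independent, and they were chosen after the values were seen. AURKB and BIRC5 lay above every control in all docetaxel libraries and INCENP below, so their ratios had to separate. INCENP has a transcript GC content of 59.6%, above that of AURKB at 55.6%, BIRC5 at 52.2% and CDCA8 at 51.4%.

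**Figure D3:**
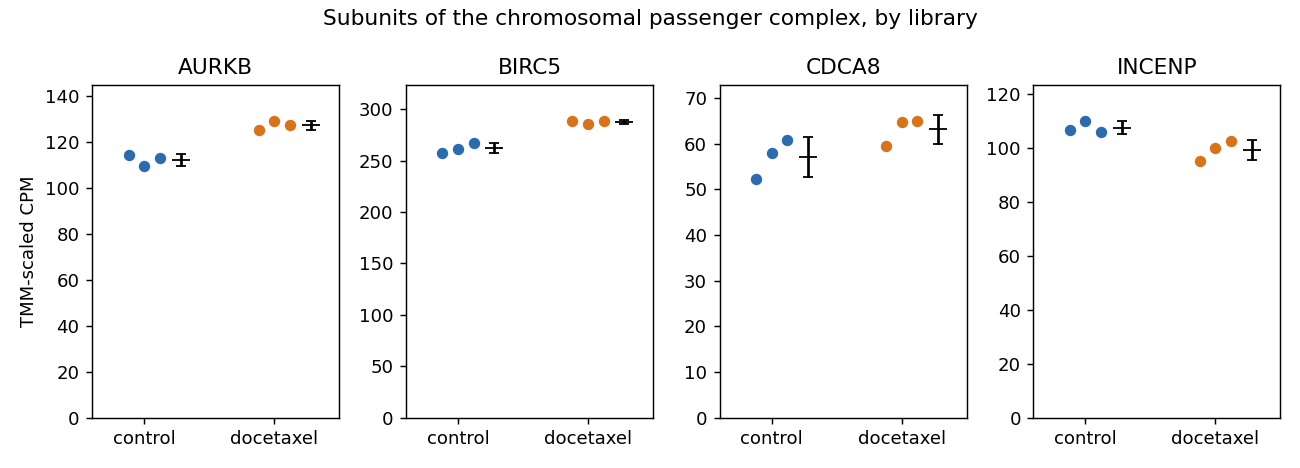
TMM-scaled CPM of the 4 subunits of the chromosomal passenger complex in each library, with the mean and SD beside the points (n = 3 per group) and axes from 0. AURKB and BIRC5 lie higher in all docetaxel libraries, CDCA8 overlaps, and INCENP lies lower in all docetaxel libraries, 99.5 ± 3.78 against 108 ± 2.33 CPM.

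Among partners of the anaphase-promoting complex and genes of sister separation, 1 of 6 rose, where 9.14% of all genes tested were higher. CDC20, the coactivator that the checkpoint inhibits (ENSG00000117399, chromosome 1, 43358955 to 43363203, plus strand), had the largest rise and the smallest p of these genes in the fit without offsets. With offsets its log2 fold change was 0.10 (edgeR adjusted p = 0.080), below those of DLGAP5 and BUB1B at 0.20 and 0.20, and INCENP had the smallest p. CDC20 had 254, 236 and 247 CPM in control and 279.8, 286 and 297 CPM with docetaxel, a log2 fold change of 0.23 ± 0.04 (edgeR adjusted p = 0.00027), with every docetaxel library above every control. The call held in all 14 alternatives without offsets. UBE2C, a ubiquitin-conjugating enzyme of the complex, had 128, 128 and 137 CPM in control and 139, 139 and 143 CPM with docetaxel, apart but short of the threshold (edgeR adjusted p = 0.12). PTTG1, which encodes securin, and ESPL1, the separase it inhibits, had log2 fold changes of 0.05 and 0.11. SGO1 and SGO2, the shugoshins that protect centromeric cohesion, were at -0.24 and -0.21 with adjusted p of 0.20 and 0.13.

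Of 6 tested genes of spindle assembly and poles, 2 rose, 1 fell and 3 did not pass. Over all genes tested 9.14% were higher and 7.82% lower. With the offsets described below TACC3 and NUMA1 were at 0.09 and 0.13, and neither was called. TACC3, which crosslinks spindle microtubules (ENSG00000013810, chromosome 4, 1721490 to 1745176, plus strand), rose from 125, 119 and 126 CPM to 142, 147 and 137 CPM, a log2 fold change of 0.20 ± 0.05 (edgeR adjusted p = 0.0018). Its partner CKAP5, a microtubule polymerase, had 131, 129 and 131 CPM in control and 136, 131 and 142 CPM with docetaxel, with docetaxel replicate 2 only just above the highest control (edgeR adjusted p = 0.38). NUMA1, which focuses spindle poles (ENSG00000137497, chromosome 11, 72002864 to 72080693, minus strand), rose from 48.8, 46.3 and 43.6 CPM to 50.5, 55.8 and 53.9 CPM, a log2 fold change of 0.21 ± 0.06 (edgeR adjusted p = 0.017). ASPM, also a spindle pole protein (ENSG00000066279, chromosome 1, 197084128 to 197146694, minus strand), went the other way, from 68.8, 74.0 and 70.8 CPM to 63.5, 61.5 and 63.9 CPM, a log2 fold change of -0.18 ± 0.05 (edgeR adjusted p = 0.018). NUMA1 and ASPM, whose products both act at spindle poles, thus moved in opposite directions, though with the offsets for GC content described below ASPM was at 0.06. HMMR and DLGAP5, which promote spindle assembly, had log2 fold changes of -0.18 and 0.03. The NUMA1 call was lost without control replicate 3 (adjusted p = 0.12), docetaxel replicate 2 (0.12) or docetaxel replicate 3 (0.078) and with library size alone (0.060), and the ASPM call without control replicate 2 (adjusted p = 0.098), control replicate 3 (0.055), docetaxel replicate 2 (0.062) or docetaxel replicate 3 (0.056).

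Of 4 central spindle and cytokinesis genes 3 fell, among them PRC1 on few reads, where 7.82% of all genes tested were lower. With offsets ANLN, ECT2 and PRC1 were at -0.15, 0.02 and -1.07 (edgeR adjusted p = 0.088, 0.86 and 0.053). ANLN, which encodes anillin, a scaffold of the contractile ring (ENSG00000011426, chromosome 7, 36389806 to 36453791, plus strand), fell from 117, 126 and 117 CPM to 111, 86.0 and 94.3 CPM, a log2 fold change of -0.31 ± 0.07 (edgeR adjusted p = 0.012). Docetaxel replicate 1 was close to the controls and the other 2 were well below. ECT2, the exchange factor that activates RhoA at the cell equator (ENSG00000114346, chromosome 3, 172750682 to 172821474, plus strand), fell from 94.5, 100.4 and 99.1 CPM to 91.8, 86.6 and 82.8 CPM, a log2 fold change of -0.17 ± 0.05 (edgeR adjusted p = 0.017). RACGAP1, the partner that recruits ECT2, had a log2 fold change of -0.06 and did not pass (adjusted p = 0.46). PRC1 had a log2 fold change of -1.08 ± 0.33 (edgeR adjusted p = 0.019) on the few reads given above. The calls were lost without control replicate 2 (adjusted p = 0.16) or docetaxel replicate 3 (0.058) for ANLN, without control replicate 2 (adjusted p = 0.072), control replicate 3 (0.075) or docetaxel replicate 3 (0.15) for ECT2, and without control replicate 2 (adjusted p = 0.14), docetaxel replicate 2 (0.079) or docetaxel replicate 3 (0.11) for PRC1.

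MKI67, which coats mitotic chromosomes and is widely used to mark dividing cells, had 132, 129 and 132 CPM in control and 131, 134 and 136 CPM with docetaxel. The groups overlapped, and the log2 fold change of 0.03 ± 0.04 did not pass (edgeR adjusted p = 0.76), with a 95% confidence interval of -0.06 to 0.12. TOP2A, the topoisomerase that untangles sister chromatids (ENSG00000131747, chromosome 17, 40388516 to 40417950, minus strand), fell from 201, 197 and 195 CPM to 178, 174 and 177 CPM, a log2 fold change of -0.16 ± 0.04 (edgeR adjusted p = 0.0050). With offsets TOP2A was at 0.01 (edgeR adjusted p = 0.92) and MKI67 at 0.09 (0.23). The difference between MKI67 and TOP2A was not tested.

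The direction of change among these genes went with transcript GC content, as it did over the whole table. The 7 genes that rose had GC contents of 52.2% to 59.5%, and the 8 that fell 37.0% to 48.1%, or to 40.8% without PRC1. Spearman's rho between GC content and log2 fold change was 0.62 over the 51 genes (Pearson's r = 0.31), and 0.54 over the 16421 genes with a GC value (r = 0.41). These are descriptions across genes that share libraries. All genes were split into 5 bins of equal number by GC content. In the lowest bin, below 41.3%, the median log2 fold change was -0.19 over all genes and -0.16 over 17 mitotic genes, of which 13 lay above the median of all. In bin 2 the medians were -0.08 and 0.0047, with 8 of 11 above, in bin 3 0.0097 and 0.03, with 6 of 11 above, and in bin 4 0.10 and 0.17, with 7 of 8 above. In bin 5, above 58.3%, MAD1L1, INCENP and CDC25B lay below the median of 0.18 and NUMA1 above it. Library by library, the slope of log2 CPM on GC content was -0.013 to -0.0050 per percentage point in control and 0.0045 to 0.0100 with docetaxel, relative to the mean of the 6 libraries. Because the slopes separate the groups, a GC bias of the libraries and a change of transcripts that follows GC content cannot be told apart.

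**Figure D4:**
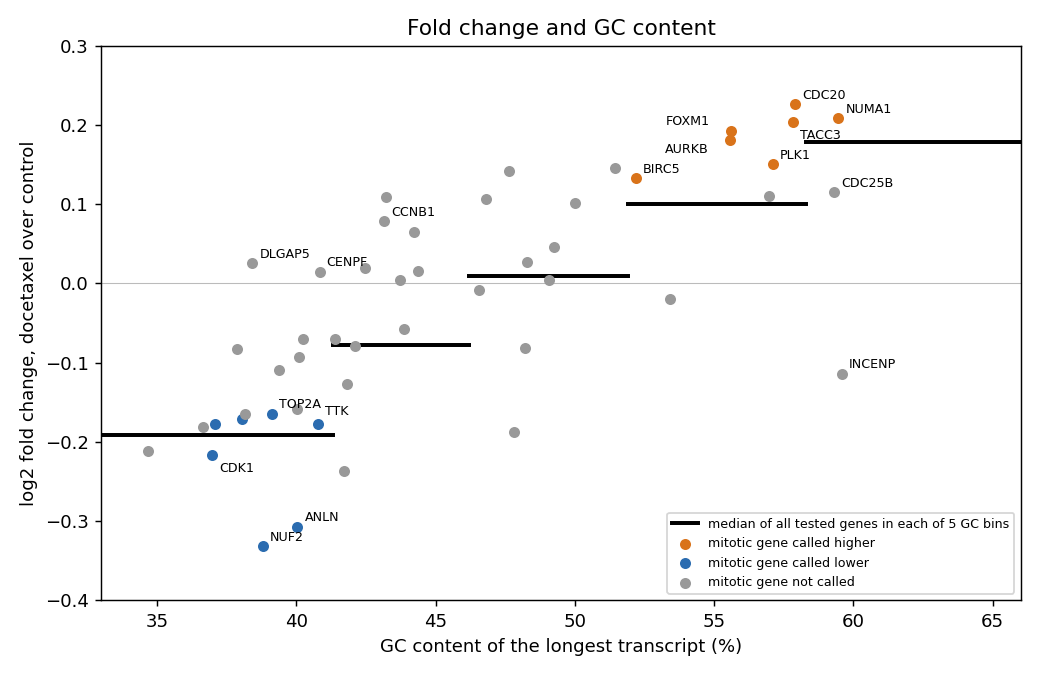
log2 fold change, docetaxel over control, of 49 mitotic genes against the GC content of the longest transcript, with the median of all tested genes in each of 5 GC bins as a black line (the outer bins run beyond the axis; PRC1 and MAD1L1, with few reads, are not drawn). The genes called higher lie at 52.2% GC or more, the called lower genes drawn at 40.8% or less, and INCENP lies far below the line of its bin.

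With offsets for GC content and gene length fitted in each library, 4 of the 51 genes were higher and 1 lower, 9.8% in all, against 2.93% and 1.95% of the 16421 genes then tested, 4.88% in all. None of the 15 genes called without offsets was among these 5. At an unadjusted edgeR p under 0.05 with offsets were 9 of the 15, 22 of all 51 (43.1%) and 17.5% of all genes tested, and the 15 had been called on the same libraries. The 7 genes that rose kept positive log2 fold changes, 0.03 to 0.13, and CDC20 had an adjusted p of 0.080. Of the 8 that fell, ASPM, ECT2 and TOP2A were at 0.06, 0.02 and 0.01 with offsets, CDK1 and TTK at -0.0066 and -0.04, and NUF2, ANLN and PRC1 at -0.17, -0.15 and -1.07. The genes called with offsets were CENPF at 0.19 (edgeR adjusted p = 0.0017), CCNB1 at 0.16 (0.0042), CKAP5 at 0.15 (0.019), TPX2 at 0.13 (0.047) and, lower, INCENP at -0.26 (0.00016). INCENP remained called with offsets when each library was left out in turn, CENPF in 5 of the 6 such fits, CCNB1 in 3, CKAP5 in 2 and TPX2 in 1. The median of the 51 was 0.05 with offsets, against 0.01 over all genes, and 36 of them (70.6%) were above 0, against 53.4% of all genes. Of 27 genes below 0 without offsets, 14 were above 0 with them, namely CCNA2, WEE1, AURKA, BUB3, MAD2L1, KNTC1, NDC80, KNL1, SGO2, HMMR, ASPM, ECT2, RACGAP1 and TOP2A, while CDC25B and ZWINT went from above 0 to below. The sign of the group's median thus depended on the offsets.

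Other genes of mitosis came from a list of 85 that shares no member with the 52. Of 84 tested, 11 were higher and 16 lower, with a median log2 fold change of -0.05, where 9.14% and 7.82% of all genes were higher and lower. With offsets 7 were higher and 1 lower with a median of 0.03, where all genes gave 2.93% and 1.95%. UBE2S, which extends ubiquitin chains for the anaphase-promoting complex, was 1.27-fold higher (edgeR adjusted p = 4.0e-07) and PKMYT1, an inhibitory kinase of CDK1, 1.23-fold higher (9.5e-05). CENPK, a kinetochore protein, and DEPDC1, a mitotic regulator, fell by 0.60 and 0.35 on the log2 scale (0.00010 and 0.00011). Of 15 core genes of the anaphase-promoting complex, 3 were higher and 2 lower, with a median of 0.02, and with offsets only 2 were called, both higher. Of 40 genes of DNA replication and its onset, 8 were higher and 4 lower, with a median of -0.01, and with offsets 1 was higher and 3 lower. Among these TK1, thymidine kinase, was 1.21-fold higher, while MCM10, a replication factor, fell by 0.43. With offsets the log2 fold changes were 0.25 for UBE2S, 0.08 for PKMYT1, -0.32 for CENPK, -0.09 for DEPDC1, 0.10 for TK1 and -0.34 for MCM10, and the calls on PKMYT1, DEPDC1 and TK1 were lost (edgeR adjusted p = 0.35, 0.34 and 0.13). No test compared these lists with the 52 genes.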

How the data were processed

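Polyadenylated RNA of 6 HCC1937 libraries (3 control, 3 docetaxel) was sequenced. The deposited values are raw read counts per gene, made by the authors with featureCounts 2.0.1 on GRCh38, with MultiQC 1.11, per the submitters' processing notes. Which aligner, annotation release and strand setting served is not given in the sources used here. Without strand, reads of overlapping genes on opposite strands cannot be told apart. Symbols came from a gene name table, which named 42179 of the 78932 rows, and coordinates and GC content from GENCODE 29.

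Counts were tested with edgeR 4.0.16 (R 4.3.3): filterByExpr, TMM scaling, robust quasi-likelihood fit, Benjamini-Hochberg adjustment over 18040 genes, threshold 0.05. SE is the log2 fold change divided by the square root of F. CPM is on TMM-scaled library sizes. Total counts per library were 38622062 to 41675186, and intervals cover the spread between libraries. The fit was tested on simulated counts with known changes. No pair of libraries from the same group agreed within sampling noise.

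Offsets were a loess fit (span 0.5) of each library's deviation on GC content and gene length. They remove any group difference that runs along either. Other settings tried were DESeq2 1.42.0, voom in limma 3.58.1, scaling by RLE, by library size alone or by the upper quartile, other filters, a replicate block, the offsets, and leaving out each library. Named genes are every gene called by either fit, up to 2 per role with the smallest p, CCNB1, CDK1, CDC20, BUB1B, MAD2L1, AURKB and PLK1, and those too low to test; other genes named for their place in a role or level order were picked with their values in view. Members and lists were chosen with earlier results of these data known. Protein sequences were not used here.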

Additional observations from a re-analysis of the deposited data

How the results depend on the processing

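The numbers of genes higher (7) and lower (8) and their median log2 fold change (-0.02) stayed within 1.5 times the counts, or within the spread between libraries, under RLE or upper-quartile scaling, DESeq2, limma-voom, no filter or a stricter one. Library size alone gave 4 higher and a median of -0.059. The replicate block gave 6 higher, 7 lower and a median of -0.024. Deviations from the group means had correlations of 0.0080, 0.0070 and 0.016 between same-numbered libraries. Between differently numbered libraries of the 2 groups they ran from -0.014 to 0.0060. With values this near 0 and 3 libraries per group, these correlations cannot show whether the numbers pair libraries. Leaving out 1 library gave 4 to 8 higher, 2 to 15 lower and medians of -0.053 to -0.0085. GC and length offsets gave 4 higher, 1 lower and a median of 0.048, and the replicate block with these offsets 3, 1 and 0.048. Offsets with 1 library left out, an alternative chosen after seeing the data, gave 0 to 6 higher, 1 to 4 lower and medians of 0.0349, 0.0545, 0.062, 0.0379, 0.0423 and 0.0429. The 0 came without control replicate 2. The cause of these shifts was not tested, and fits without 1 library have fewer samples.

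Over all 51 genes, 14 of 27 log2 fold changes below 0 turned positive with offsets and 2 above 0 turned negative. Of the named genes followed through every setting, ASPM, ECT2, MAD2L1 and TOP2A turned positive. ASPM was at 0.06 with offsets, 0.0597 with offsets and the replicate block, and 0.0492, 0.0545, 0.0769, 0.0973, 0.0431 and 0.0385 with offsets in the 6 fits without 1 library that gave that sign. ECT2 was at 0.024 with offsets, 0.0241 with offsets and the replicate block, and 0.0101, 0.00992, 0.0514, 0.0179, 0.0022 and 0.049 with offsets in the 6 fits without 1 library that gave that sign. MAD2L1 was at 0.059 with offsets, 0.059 with offsets and the replicate block, and 0.0667, 0.0471, 0.062, 0.0462, 0.0729 and 0.0538 with offsets in the 6 fits without 1 library that gave that sign. TOP2A was at 0.013 with offsets, 0.0134 with offsets and the replicate block, and 0.0354, 0.0185, 0.0314, 6.1e-05 and 0.00144 with offsets in the 5 fits without 1 library that gave that sign. CDK1 was at 0.018 and 0.025 with offsets and without control replicate 2 or docetaxel replicate 1. PLK1 turned negative, at -0.0081, with offsets and without docetaxel replicate 3. CENPF was at -0.023 with library size alone and -0.0092 without docetaxel replicate 1 (fits without 1 library ranged from -0.0092 to 0.028), and MKI67 at -0.011 with library size alone. Calls on AURKB, CDC20, FOXM1, NUF2, TACC3 and TOP2A held in all 14 alternatives without offsets. NUSAP1, MAD1L1 and PRC1 had so few reads that only large differences could be seen. DESeq2 gave no adjusted p for PRC1.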
